A study of Oryza sativa with 6 samples.

Results

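The probe sets described here were high in rice seedlings overexpressing the gene OsUBA and lower, at nearly equal levels, in OsUBA RNAi and wild-type seedlings. They were chosen by their values. The lower of the 2 overexpression arrays had to exceed the highest of the 4 RNAi and wild-type arrays by at least 1 on the log2 scale (this distance is called the gap below), the RNAi and wild-type means had to differ by less than 0.5, and the overexpression mean had to reach log2 8. Of 57194 probe sets other than controls, 105 met the rule. They hold 76 genes with a locus identifier (79 probe sets), and 26 probe sets have no listed gene. Because every array entered the rule, the values of the members are a description and carry no test.

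RNA came from untreated whole seedlings of Oryza sativa that had 4 leaves and were kept at 28 °C, and was hybridised to 1-colour Affymetrix arrays. The 3 groups, each of 2 biological replicates, were seedlings overexpressing OsUBA, seedlings carrying RNA interference against OsUBA (RNAi, the lowering of a transcript through matching double-stranded RNA), and the wild-type cultivar Nipponbare. The labels give neither the promoter of the constructs nor the number of transformed lines, and no group carries an empty construct, so effects of OsUBA and of transformation cannot be told apart. In whole seedlings, more cells of a type and more RNA per cell cannot be told apart either.

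The median log2 value of an array lay between 5.67 and 5.92, and replicate arrays had a Pearson correlation of 0.905 to 0.906 across probe sets, against 0.871 to 0.907 for arrays of different groups. The 6 matched markers of green leaf, among them RBCS, CAB2R and RCA, averaged log2 14.37 and 14.40 on the overexpression arrays, 14.47 and 14.51 on the RNAi arrays and 14.56 and 14.41 on the wild-type arrays. The 4 matched root markers averaged 6.06 and 5.45 on the overexpression arrays, 5.97 and 6.35 on the RNAi arrays and 6.36 and 5.57 on the wild-type arrays, and the 5 matched seed markers averaged 7.03 and 5.91, 7.46 and 6.76, and 7.37 and 6.33 on the same arrays. The 2 matched pollen markers averaged 4.77 and 3.95 on the overexpression arrays, 4.32 and 5.40 on the RNAi arrays and 3.49 and 4.30 on the wild-type arrays, while 0 of the 4 listed meristem markers were matched. None of the 17 matched markers was a member, and of the 14 that passed the filter 0 passed the test between overexpression and wild type. The OsUBA transcript itself was not analysed here. With 2 arrays a group, precision is limited by their number.

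A gene name was found for 10 of the 76 genes, and the others are known by locus or clone identifiers. The products of the 10 named genes work in several places of the plant cell. Some supply or modify the cell wall, in which UDP-glucose dehydrogenases make the UDP-glucuronate from which xylan and other polysaccharides are built, laccases oxidise the phenolic alcohols that polymerise to lignin, and O-methyltransferases decorate phenolic compounds. Others act in plastids, where a bacterial-type RNA polymerase transcribes photosynthesis genes together with a set of associated nuclear-encoded proteins. The remainder are membrane proteins, an enzyme of fatty acid synthesis, a protein phosphatase and a BURP domain protein.

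UGD3 (LOC4334169), a UDP-glucose dehydrogenase, stood at log2 12.14 and 12.18 in overexpression, 9.36 and 9.69 in RNAi and 9.58 and 10.18 in wild type. Its overexpression arrays were nearly equal, and its mean was 6.22-fold that of RNAi and 4.86-fold that of wild type. LAC10 (LOC4332400), a laccase, reached 10.17 and 8.86 in overexpression, against 6.10 and 6.31 in RNAi and 6.18 and 6.63 in wild type. Here the overexpression arrays lay more than 1 log2 unit apart, both above all others, and the mean was 9.96-fold that of RNAi and 8.67-fold that of wild type. BURP3 (LOC4324159), of a plant-specific family named for its C-terminal BURP domain, stood at 12.01 and 11.85 in overexpression, 9.55 and 8.70 in RNAi and 10.27 and 8.39 in wild type. Its spread lay in the other groups, with a wild-type SD of 1.33 (n = 2).

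ROMT-17 (LOC4345935), of the caffeoyl-CoA O-methyltransferase family, met the rule on 1 of its 4 probe sets, at 11.20 and 10.47 in overexpression, 8.68 and 9.05 in RNAi and 9.18 and 8.88 in wild type. The other 3 probe sets of this gene had overexpression means that differed from the mean of the 4 other arrays by -0.32, 0.05 and 0.08, and on each the highest array was an RNAi array. The probe sets of ROMT-17 therefore disagree, and its place among the members rests on 1 of them.

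ADIPOR1 (LOC4341641), a membrane protein with the heptahelical fold of the animal adiponectin receptors, met the rule on all 3 of its probe sets. The probe set with the largest gap stood at 11.25 and 10.99 in overexpression, 7.87 and 7.89 in RNAi and 8.07 and 8.14 in wild type. The others gave 13.79 and 13.66 in overexpression, 11.10 and 10.49 in RNAi and 11.27 and 11.21 in wild type, and 11.54 and 11.38, 8.84 and 8.69, and 9.28 and 9.02. The 3 probe sets put overexpression above wild type by 3.01, 2.48 and 2.31 on the log2 scale and above RNAi by 3.23, 2.93 and 2.70. ZIP5 (LOC4339082), of a family of zinc and iron transporters, had nearly equal RNAi and wild-type means. It stood at 9.35 and 8.76 in overexpression, 6.44 and 6.79 in RNAi and 6.55 and 6.69 in wild type. Its overexpression mean was 5.42-fold that of RNAi and 5.40-fold that of wild type.

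PRIN2 (LOC4346938), whose Arabidopsis counterpart is needed for full activity of the plastid-encoded RNA polymerase, stood at 11.09 and 10.02 in overexpression, 8.01 and 8.12 in RNAi and 8.65 and 8.43 in wild type. The gene wsl3, which encodes a rice component of the complex of that polymerase, stood at 10.19 and 9.55 in overexpression, 7.81 and 8.04 in RNAi and 8.22 and 8.28 in wild type. In both genes the RNAi arrays lay below the wild-type arrays, by 0.47 in the means of PRIN2, close to the limit of the rule.

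**Figure D1:**
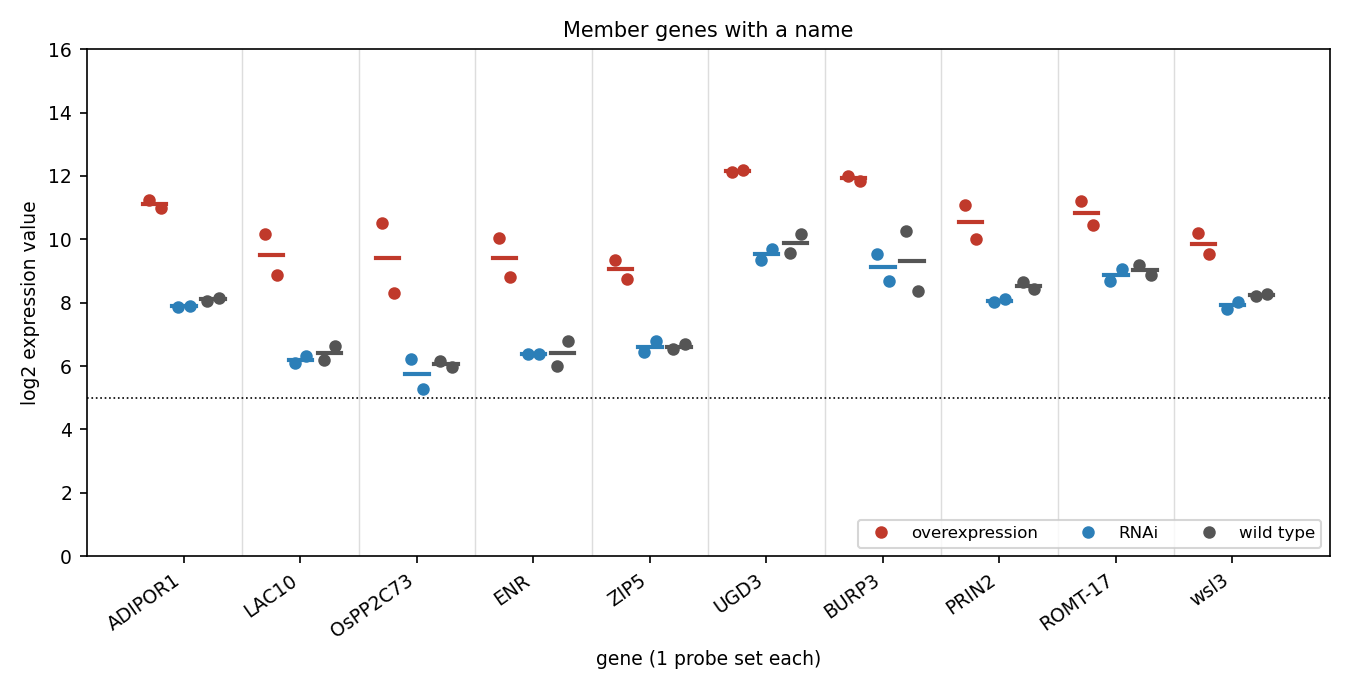
Log2 expression values of the 10 member genes with a name, 1 probe set each, on the overexpression (red), RNAi (blue) and wild-type (grey) arrays. Points are single arrays, short bars are group means (n = 2), and the dotted line marks the floor of log2 5 used to filter dim probe sets. In every gene both overexpression points lie above the other 4, as the rule requires, with the closest pair of overexpression arrays in UGD3 (12.14 and 12.18) and the widest in OsPP2C73 (10.51 and 8.31).

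ENR (LOC4346596), 1 of 2 loci that carry the symbol of the enoyl-ACP reductases of plastid fatty acid synthesis, stood at 10.04 and 8.80 in overexpression, 6.38 and 6.37 in RNAi and 6.01 and 6.80 in wild type. The other ENR locus (LOC4345286) was high on overexpression replicate 1 only, at 9.69 and 7.19 in overexpression, 6.96 and 7.53 in RNAi and 7.29 and 7.62 in wild type. OsPP2C73 (LOC4349568), a protein phosphatase 2C, met the rule on 2 of its 4 probe sets, both with the suffix _s_at. The first stood at 10.51 and 8.31 in overexpression, 6.21 and 5.29 in RNAi and 6.15 and 5.96 in wild type, and the second at 9.26 and 7.61, 6.24 and 5.35, and 6.36 and 5.47. The other pair of its probe sets, with the suffix _at alone, was dim. There overexpression minus the mean of the 4 other arrays was 1.69 and -0.24. On the first of these both overexpression arrays (6.77 and 6.17) lay above the 4 others, and on the second the groups overlapped. The place of OsPP2C73 among the members therefore rests on its _s_at probe sets, and whether those read this gene alone was not checked.

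Genes without a name had the largest gaps. LOC4336565 stood at log2 11.03 and 10.46 in overexpression, 2.46 and 1.89 in RNAi and 1.61 and 2.73 in wild type. With both other groups under the floor of log2 5, overexpression was at least 53.5-fold higher, counted from the floor. LOC4335562 stood at 12.89 and 10.24 in overexpression, 0.07 and 3.82 in RNAi and 3.04 and 0.69 in wild type, at least 94.7-fold higher, or at least 37.8-fold without overexpression replicate 1. LOC4348120 stood at 14.06 and 8.89 in overexpression, 2.06 and 3.29 in RNAi and 3.49 and 2.34 in wild type, and LOC4348445 at 10.65 and 6.81, 1.20 and 2.34, and 2.98 and 1.02. On the probe sets given for these 4 genes every RNAi and wild-type array was under the floor and both overexpression arrays were above it. The overexpression arrays of the last 2 lay 5.17 and 3.84 log2 units apart. A further probe set of LOC4335562, outside the rule, was not dim in wild type. It stood at 12.81 and 13.22 in overexpression, 4.82 and 6.14 in RNAi and 7.90 and 5.74 in wild type.

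LOC9269584 stood at 14.65 and 12.52 in overexpression, 5.29 and 6.64 in RNAi and 6.79 and 5.61 in wild type, and LOC4332782 at 12.52 and 12.21, 5.69 and 5.93, and 5.84 and 6.15. LOC4332782 combined a large difference, 6.55 above RNAi and 6.37 above wild type, with close replicates in all 3 groups (SD 0.22, 0.17 and 0.22 in overexpression, RNAi and wild type). LOC4342185 stood at 10.87 and 8.98 in overexpression, 4.23 and 5.001 in RNAi and 4.68 and 4.55 in wild type. LOC4338548 stood at 10.76 and 8.51 in overexpression, 4.02 and 5.21 in RNAi and 3.83 and 5.50 in wild type. Both had RNAi and wild-type means under the floor, and were higher in overexpression by at least 30.4-fold for LOC4342185 and, for LOC4338548, 23.0-fold over RNAi and 20.9-fold over wild type, with each dim array set to the floor. Without overexpression replicate 1 these bounds were 15.8-fold, 10.5-fold and 9.57-fold.

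LOC4336334 stood at 13.13 and 11.29 in overexpression, 7.42 and 7.19 in RNAi and 7.51 and 7.81 in wild type, and LOC4352200 at 11.15 and 9.83, 6.40 and 5.84, and 6.33 and 6.72. LOC4326982 stood at 9.28 and 10.04 in overexpression, 4.95 and 4.81 in RNAi and 4.21 and 5.94 in wild type. LOC4348947 stood at 12.01 and 12.16 in overexpression, 8.38 and 7.83 in RNAi and 8.73 and 8.38 in wild type. LOC4326982, LOC4348947 and UGD3 are among the few members in which overexpression replicate 2 was the higher array.

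**Figure D2:**
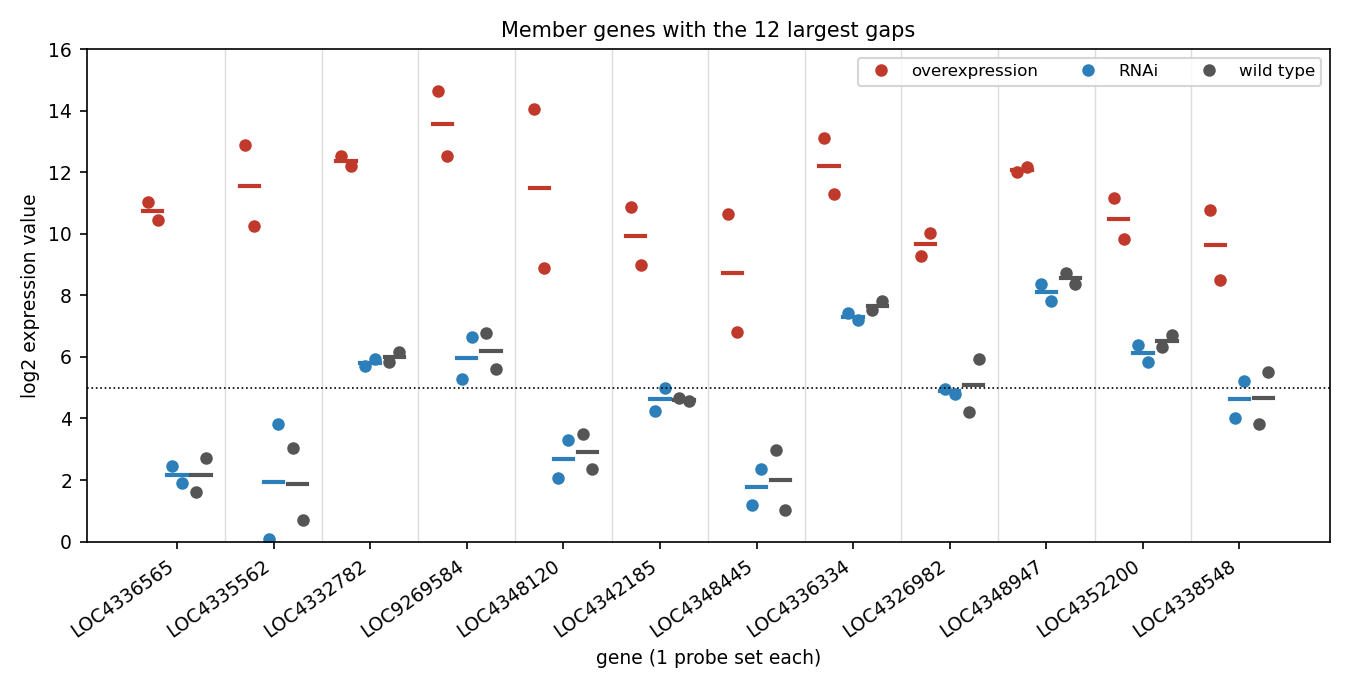
Log2 expression values of the 12 member genes with the largest gaps, 1 probe set each, on the overexpression (red), RNAi (blue) and wild-type (grey) arrays. Points are single arrays, bars are group means (n = 2), and the dotted line is the floor of log2 5. The RNAi and wild-type points of LOC4336565, LOC4335562, LOC4348120 and LOC4348445 all lie under the floor, and the overexpression points of LOC4348120 (14.06 and 8.89) lie farthest apart.

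The other 54 genes without a name had differences between overexpression and the mean of the 4 other arrays from 1.34 to 4.36, with a median of 2.37. The 26 probe sets with no listed gene ranged from 1.36 to 5.96, with a median of 2.25. Over all 105 members the median of that difference was 2.51, 72 members had at least 2 and 18 at least 4. Gaps ran from 1.01 to 7.73 with a median of 1.60, and 39 reached 2. In 12 members both the RNAi and the wild-type mean were under the floor, so the exact size of their gaps and differences, which include the largest, is not known. All 105 passed the filter for dim probe sets (at least 2 of the 6 arrays at log2 5 or more), 11 of them through the overexpression arrays, in the sense that fewer than 2 of the 4 other arrays reached the floor.

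**Figure D3:**
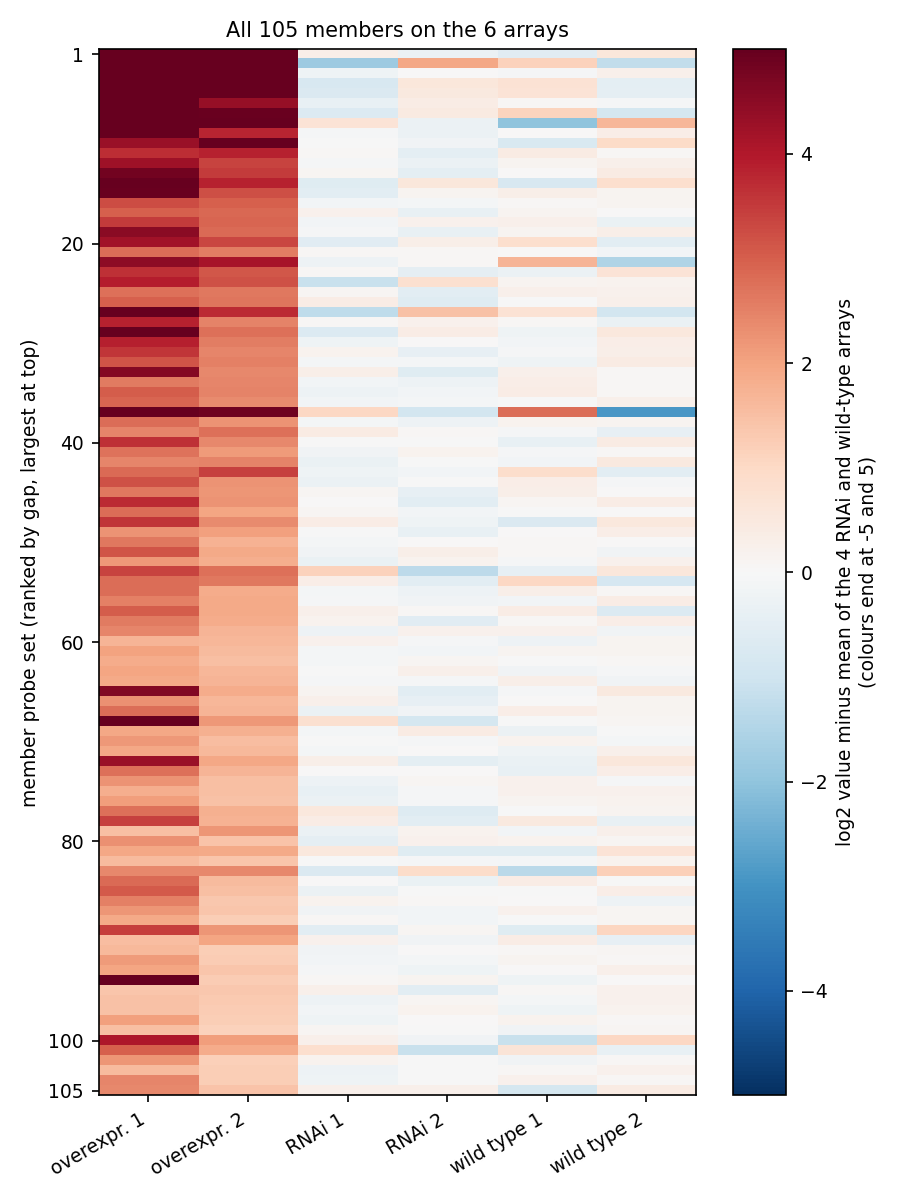
All 105 members (rows, ranked by gap with the largest at the top) on the 6 arrays (columns). Colours give the log2 value minus the mean of the 4 RNAi and wild-type arrays, and end at -5 and 5. The first column, overexpression replicate 1, is the darker of the overexpression columns in most rows, while the RNAi and wild-type columns stay near 0 in most rows.

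The rule cut through a continuous spread of values. Just inside the limit for the gap were LOC4331606 (1.007), LOC4330149 (1.01) and LOC4341616 (1.01), and just outside were LOC4345328 (0.998), LOC4341859 (0.984) and OsC3H37 (0.983). For the difference between RNAi and wild type, LOC4331606 (0.49), LOC4338509 (-0.48) and PRIN2 (-0.47) were just inside, and LOC4348233 (0.51), LOC4327138 (0.51) and LOC4334201 (-0.51) just outside. For the overexpression mean, the closest inside were 8.03, 8.04 and 8.06, and the closest outside 7.90, 7.80 and 7.77. Dropping the limit on RNAi against wild type left 456 probe sets with the same gap and level, of which 319 had RNAi lower than wild type by 0.5 or more and 32 had RNAi higher by 0.5 or more. The 105 members are those of the 456 in which the RNAi and wild-type means were close.

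The same 3 limits turned to the other groups gave fewer probe sets high in 1 group alone: 52 for RNAi and 2 for wild type. For low values in 1 group alone, with the mean of the 4 other arrays at log2 8 or more, the counts were 4 for overexpression, 102 for RNAi and 10 for wild type. Higher values in overexpression were therefore far more numerous under this rule than lower ones. Over all probe sets other than controls, 9.41% had both overexpression arrays above the 4 other arrays, and of those with an overexpression mean of at least 8, 14.4% had.

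**Figure D4:**
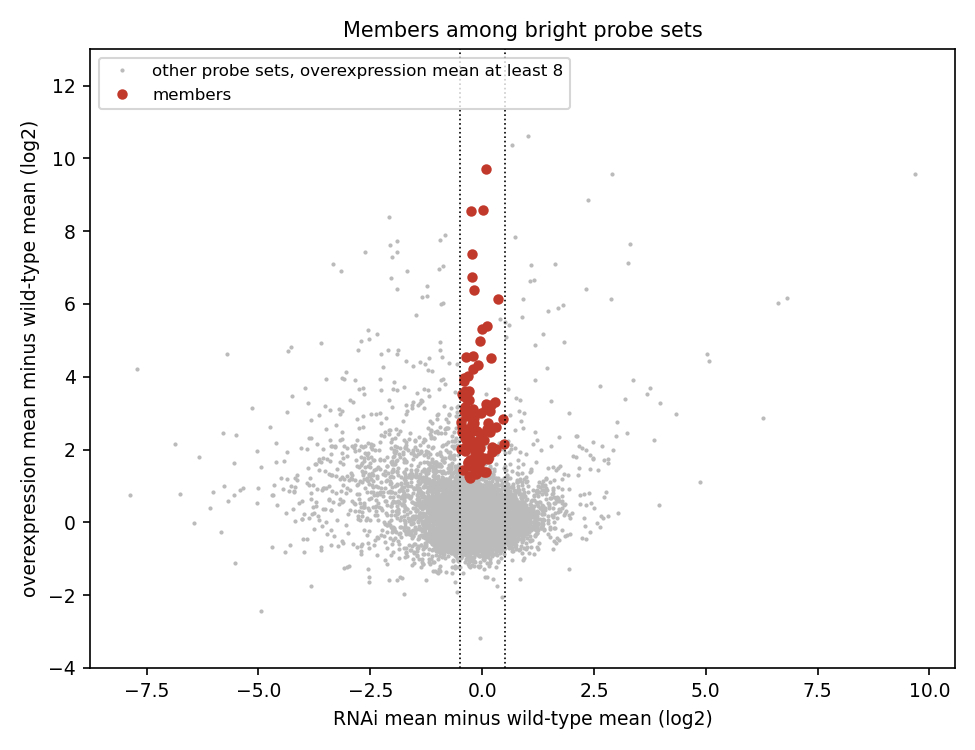
Overexpression mean minus wild-type mean (vertical, log2) against RNAi mean minus wild-type mean (horizontal, log2) for probe sets with an overexpression mean of at least 8. Red points are the 105 members, grey points the other probe sets, and the dotted lines mark the limits at -0.5 and 0.5. Above the members' lowest difference of 1.23 the grey points are denser on the left, where RNAi lies below wild type, than on the right.

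Within the limit of 0.5, the RNAi mean lay below the wild-type mean in 79 of 105 members, with a median difference of -0.20. Among all 13589 probe sets with an overexpression mean of at least 8 and RNAi within 0.5 of wild type, this was so in 43.6%, with a median of 0.04. UGD3, PRIN2, wsl3 and ADIPOR1 were among the members with RNAi lower, while ZIP5 (-0.004) and LOC4336565 (0.008) had means within 0.01 of each other. LOC4336565 is 1 of the 12 members with both means under the floor, where close means do not show equal expression. These small differences were bounded by the rule and were not tested.

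Overexpression replicate 1 was the higher overexpression array in 97 of 105 members, by a median of 0.74. Among all 17527 probe sets with an overexpression mean of at least 8, replicate 1 was higher in 43.9%, with a median of -0.04. In 38 members replicate 1 exceeded replicate 2 by 1 or more, up to 5.17 in LOC4348120, and in 0 members did replicate 2 exceed replicate 1 by as much. In 33 members the arrays were within 0.5. The 319 probe sets with RNAi lower than wild type leaned the same way, with replicate 1 higher in 295. The median SD of the members was 0.53 in overexpression, 0.24 in RNAi and 0.22 in wild type, against 0.15, 0.16 and 0.18 over the probe sets of the same overexpression level. For some members the size of the difference depends on the array. Leaving out overexpression replicate 1 lowered the difference of LAC10 to 2.56, against 3.22 with all arrays, that of OsPP2C73 to 2.41, against 3.51, and that of ENR to 2.41, against 3.03. Counted from the floor, the lower bound without that array was 14.8-fold for LOC4348120, against 89.0-fold with both, 37.8-fold for LOC4335562 and 3.50-fold for LOC4348445. UGD3 (2.48 and 2.44 without overexpression replicates 1 or 2) and LOC4332782 (6.30 and 6.62) moved little. The fold of 11 of the 22 named members moved by over 1.5 times when 1 array was left out. What set the overexpression arrays apart was not tested.

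**Figure D5:**
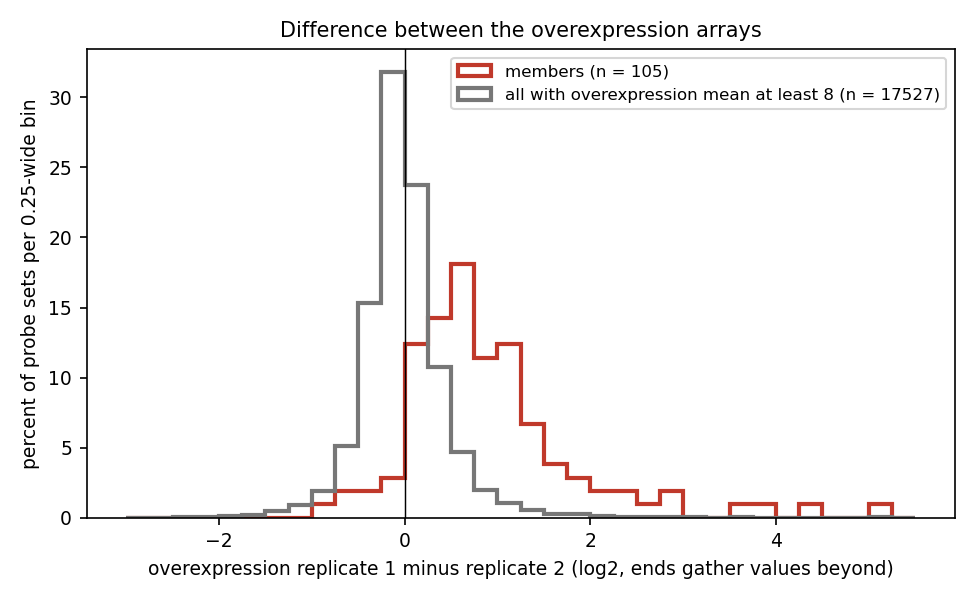
Difference between the overexpression arrays (replicate 1 minus replicate 2, log2, horizontal) as the percent of probe sets per bin, for the 105 members (red) and for all 17527 probe sets with an overexpression mean of at least 8 (grey). The end bins gather values beyond the axis. The members lie mostly right of 0, with a median of 0.74, and the others are centred near 0, with a median of -0.04.

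A limma fit over all 40466 kept probe sets, with the prior spread following brightness, called 38 of 105 members higher in overexpression than in wild type, beside 0.346% of all kept probe sets. It called 87 members higher in overexpression than in RNAi, beside 3.31%. Called lower were 0 members in both contrasts, beside 0.00988% against wild type and 0.954% against RNAi, and the shares in either direction were 0.356% and 4.26%. Between RNAi and wild type 0 members were called, beside 0.773% of all kept probe sets (0.19% higher and 0.583% lower in RNAi). The rule used both contrasts, so these counts are not evidence about the members. They depend on the fit and on single arrays. Without the intensity trend they became 0 against wild type and 1 against RNAi. Between overexpression and wild type the 38 became 0 without overexpression replicate 1 and 27 without its replicate 2. Dropping wild-type replicate 1 left 3, and dropping wild-type replicate 2 left 6. Between overexpression and RNAi the 87 became 21 without overexpression replicate 1, and 58 to 74 without any other array.

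For 11 of the 76 genes the array holds further probe sets, 15 in all, that did not meet the rule. On 9 of them both overexpression arrays still lay above the 4 others. The limit on RNAi against wild type was missed by 11, and 6 missed the rule through it alone. In those 6, RNAi minus wild type was -1.34 and 1.02 (LOC4335562), -0.62 (LOC4337172), -1.45 (LOC4337446), -1.17 (LOC4337673) and -1.23 (LOC9269584). On the LOC4335562 probe set with 1.02 every RNAi and wild-type array was under the floor, so no difference is shown there. On the others the RNAi mean lay below the wild-type mean by more than the limit. None of the 6 passed between RNAi and wild type (limma adjusted p from 0.355 to 0.856). Of the 6, LOC4335562 has 2, with overexpression above the mean of the other arrays by 6.87 on the log2 scale on the first and at least 118-fold, counted from the floor, on the second. LOC9269584 has 1, at 6.84. The 6 on which the overexpression arrays did not both lie above the 4 others belong to ROMT-17 (3 probe sets), OsPP2C73, LOC4330149 and LOC4333329. These probe sets were read on the same RNA, so they bear on the probes and not on the plants.

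Relatives of the named members were taken from gene lists matched by name. Over 16691 genes, 0.605% rose and 0% fell against wild type, and 5.72% rose and 1.43% fell against RNAi. Of 12 measured genes in the list of UDP-sugar supply, 3 of which carry a symbol of the sucrose transporters (SUT), 2 rose in overexpression against wild type and 0 fell. These were UGD3, a member and so no independent evidence, and SUS1 (LOC4333062), a sucrose synthase that makes UDP-glucose, at 12.50 and 10.87 in overexpression and 7.94 and 7.50 in wild type (log2 change 3.97 ± 0.52 SE, limma adjusted p = 0.0309). The median log2 change of this list was 0.52, against -0.04 over 16691 genes. UGD4 (LOC4352146), another UDP-glucose dehydrogenase, had a log2 change of 1.65 (limma adjusted p = 0.202) against wild type and rose against RNAi (log2 change 2.50, limma adjusted p = 0.012). UGD5 (LOC4352147) passed in neither contrast, with log2 changes of 0.65 against wild type (limma adjusted p = 0.499) and 1.12 against RNAi (limma adjusted p = 0.061). Of 7 measured laccases, 1 rose against wild type, LAC20 (LOC4351006), at 10.99 and 10.26 in overexpression and 6.46 and 6.89 in wild type (log2 change 3.95 ± 0.44 SE, limma adjusted p = 0.0171). Unlike LAC10, LAC20 and SUS1 had RNAi arrays under the floor and below those of wild type (2.86 and 3.50 for LAC20, 4.87 and 4.30 for SUS1), which kept both out of the rule. Without overexpression replicate 1, the comparison with wild type called 0 probe sets of the whole table, and without the intensity trend the comparisons with wild type and with RNAi called 0 and 5.

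Of 33 measured metal transporters 1 rose against wild type, ZIP5 itself, and 0 fell (median -0.03). ZIP5, OsPP2C73 and BURP3 are members, so their calls in these lists are no independent evidence. LOC4339082 carries ZIP2 as another symbol, which a second locus shares, so the locus identifier and not the symbol sets this gene. The relatives of ADIPOR1 had log2 changes of -0.12 (ADIPOR2) and -0.004 (ADIPOR3) against wild type, and neither passed (limma adjusted p = 0.914 and 0.997). Of 52 phosphatases 2C, 0 rose against wild type, while 1 rose (OsPP2C73) and 5 fell against RNAi (median -0.23). Of 6 BURP genes, 0 passed against wild type, and BURP3 and BURP2 rose against RNAi. BURP2 (LOC4338119) had log2 changes of 1.65 against RNAi (limma adjusted p = 0.0335) and 1.50 against wild type (limma adjusted p = 0.171). ROMT-15 (LOC4345934), the nearest relative of ROMT-17 by name, rose by 1.18 on the log2 scale against RNAi (limma adjusted p = 0.0153) and had 0.20 against wild type (limma adjusted p = 0.756). The 13 other lists matched by gene family or pathway held 0 members. Against wild type 1 gene rose in each of the lists of cellulose synthases (9 measured), xylan glycosyltransferases (8), tubulins (10), the methionine cycle (7), acyltransferases (6), ATP-citrate lyase and acetyl-CoA supply (5) and homeobox genes with secondary wall regulators (31), and 0 in monolignol genes (17), kinesins (28), expansins (21), arabinogalactan proteins (1), aquaporins (24) and the ubiquitin system (13). No gene of any list fell against wild type, where 0.605% of all genes rose. More rose against RNAi: 8 cellulose synthases, 4 xylan glycosyltransferases, 6 tubulins, 2 methionine cycle genes, 3 acyltransferases and 1 gene of acetyl-CoA supply. So did 3 homeobox or wall regulator genes (1 fell), 4 monolignol genes, 8 kinesins, 4 expansins and 2 aquaporins. Arabinogalactan proteins and the ubiquitin system had 0. Of all genes, 5.72% rose and 1.43% fell against RNAi. In RNAi against wild type, 5 cellulose synthases, 4 kinesins, 2 tubulins, 2 monolignol genes, 1 xylan glycosyltransferase and 1 expansin fell. In these 13 lists, 1 homeobox or wall regulator gene rose in RNAi. Over 16691 genes, 162 fell and 41 rose. The median change of cellulose synthases was -2.38 in RNAi and 0.76 in overexpression, both against wild type. A rise against RNAi is therefore not by itself a rise above wild type.

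On the array, members had a listed gene more often than probe sets in general (75.2% against 39.2%), and OsAffx probe sets, a name class set by the array maker, made up 13.3% of them, 9.31% of probe sets with an overexpression mean of at least 8 and 44.6% of all. Probe sets with the suffix _x_at, which can bind several transcripts, made up 13.3% of the members and 13.4% of all probe sets with an overexpression mean of at least 8. Those with the suffix _s_at made up 9.52% of the members, 8.33% at that overexpression level and 4.92% of all. The probe set given for LOC4348120 carries _x_at, and the first ones given for ADIPOR1 and OsPP2C73 carry _s_at. The last one given for ADIPOR1 and the one given below for LOC4337173 also carry _x_at. In the RefSeq table of assembly ASM3414082v1, chromosome 3 held 20 of the 76 genes (26.3%), against 14.5% of the genes with an overexpression mean of at least 8 and 14.1% of the 248 genes with RNAi lower than wild type. LOC4337172 and LOC4337173, on chromosome 4, had 1 gene between them, and no other members lay closer than LAC10 and LOC4332407, with 7 genes between them. LOC4337172 stood at 12.80 and 12.05 in overexpression, 10.35 and 9.63 in RNAi and 10.23 and 10.53 in wild type. LOC4337173 stood at 10.39 and 8.44 in overexpression, 6.62 and 6.17 in RNAi and 5.23 and 7.38 in wild type. The genes next to the pair, LOC4337170, LOC4337171 and LOC4337174, had differences between overexpression and the 4 other arrays of 0.55, 0.89 and 0.48, with overlapping arrays, and LOC4337170 and LOC4337171 were under the floor in all 3 group means.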

How the data were processed

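The authors deposited log2 expression values for 57381 probe sets on 6 arrays; RMA, without a version, is named per the submitters' processing notes. Each array held 331 to 618 exact zeros and the array distributions differed slightly, so how probes were summarised is not settled. Values were used as deposited. The 187 control probe sets were left out, and 40466 probe sets with at least 2 of 6 arrays at log2 5 or more were tested with limma 3.58.1 (R 4.3.3; 3 group means, 3 residual degrees of freedom, intensity trend, two-sided, Benjamini-Hochberg over all kept probe sets, threshold 0.05), tested first on simulated data. Genes came from the platform annotation (22436 probe sets with 1 gene, 95 with several, 34663 with none), named through RefSeq. The members, the 16 gene lists, the 5 lists of relatives added later (ADIPOR, phosphatase 2C, BURP, ENR and ROMT) and the intensity trend were chosen with earlier results of these data known. CCCH zinc finger genes, matched by the symbol C3H, were left out of the monolignol list, and each gene entered list counts through its brightest probe set by mean. Named members are every gene with a name and the 12 with the largest gaps. Alternatives were other limits of the rule, filters, scalings, fits and leaving out each array. Sequences and signal over background were not used here.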

Additional observations from a re-analysis of the deposited data

How the results depend on the processing

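The rule gave 273 probe sets with a gap of 0.5, 39 with a gap of 2, 60 and 188 with a limit of 0.25 and 1 on RNAi against wild type, and 456 without that limit (chosen after seeing the data), beside 105. Leaving out 1 array gave 108 to 319, with 319 without overexpression replicate 2 and 176 without wild-type replicate 1. Of the 105 members, 94 and 103 stayed without overexpression replicates 1 and 2. Fewer stayed without RNAi replicates 1 and 2 (75 and 83) or wild-type replicates 1 and 2 (77 and 79). Other levels gave 127 and 76, and other scalings 108 and 109, of which 95 and 96 were members. The counts of probe sets past the limma threshold were 144 for overexpression against wild type, 1725 for overexpression against RNAi and 313 for RNAi against wild type. Without the intensity trend they were 0, 5 and 1, with 3301, 5957 and 3720 at an unadjusted p under 0.05. With only the 4 arrays compared they were 255, 1226 and 141. Leaving out 1 array gave 0 to 223, 276 to 1830 and 16 to 716. Against wild type the count was 0 without overexpression replicate 1 (2307 at an unadjusted p under 0.05), 74 without its replicate 2, 20 without wild-type replicate 1, 28 without its replicate 2, 223 without RNAi replicate 1 and 216 without RNAi replicate 2. A lone array was assumed to vary like the other groups. Arrays with the same replicate number did not deviate together over all kept probe sets (r = -0.01, 0.04 and -0.03). Such a correlation cannot exclude pairing that touches few probe sets, and the main fit used no pairing. The replicate block gave 109, 1595 and 393. Filters, scalings and averaging gave 113 to 213, 1479 to 1823 and 244 to 379. For the 22 named members 176 alternatives were run and 0 turned a direction, which the rule itself fixes when an array is left out. Without the 3 SUT symbols (chosen after seeing the data) the median of UDP-sugar supply was 0.56 over 9 genes. Signal over background was not used here, so dim values rest on the floor of log2 5 alone.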
